A study of Mus musculus with 3 samples.

Results

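The translation initiation and elongation factor genes were taken as the protein-coding genes of the GENCODE M21 annotation whose symbol starts with Eif or Eef, and 68 genes were described here. They are 68 of 22028 protein-coding genes and of 55536 genes of any class. Polyadenylated RNA was sequenced from CD4-positive T cells of the effector memory kind with an alpha-beta receptor, which are antigen-experienced helper T cells, of 1 male adult C57BL/6J mouse aged 7 months. The labels give 3 libraries, technical replicates 1, 2 and 3 of that mouse, and no allele, treatment or second group, so levels are described and every spread is technical. How the cells were sorted is not given in the sources used here.

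Translation begins when eIF2 brings the initiator tRNA to the small ribosomal subunit with eIF1, eIF1A, eIF3 and eIF5. The eIF4 factors bind the cap and unwind the mRNA, the complex scans to a start codon, and eIF5B joins the large subunit. The eEF1 factors then deliver aminoacyl-tRNAs and eEF2 moves the ribosome along the mRNA. In T cells this machinery is known to be held back at rest and raised on activation, largely through mTOR and through phosphorylation of eIF2.

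Gene counts summed to 16251564, 14878641 and 14152590 in libraries 1, 2 and 3, and a gene at 0 in a library allows up to 3 counts there, or 0.185 to 0.212 CPM (counts scaled to library size). That limit covers counting error only. Rows outside the GENCODE M21 genes took 0.188% and 0.240% of all counts in libraries 1 and 3 and 0.579% in library 2. They were 26248 numbered rows taken as tRNA, 96 rows taken as spike-ins and 1 phiX row, counted together. The helper T cell genes Cd4 and Cd3e stood at 476 ± 4.74 and 679 ± 29.2 TPM, while Cd8a, Cd79a, Lyz2, S100a8, Ncr1 and Col1a1 were below 1 TPM and Trdc had 0 counts. The red cell gene Hbb-bs was given 3.90 ± 2.57 TPM.

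Levels are TPM, the deposited measure of transcripts scaled to length and library, as mean ± SD of 3 libraries. The factor genes were nearly all expressed: 64 of 68 (94.1%) reached 1 TPM in every library, against 45.3% of the 21960 other protein-coding genes. At 100 TPM the shares were 42.6% (29 genes) and 7.16%. The median of the members was 52.4 TPM, with a spread of 4.51 TPM between the library medians, against 0.683 TPM for the other protein-coding genes. Together the members held 1.499% ± 0.086 of gene counts, with 1.54%, 1.40% and 1.55% in libraries 1, 2 and 3, so library 2 was the lowest. That order was not shared by all groups. The Eef genes held 0.564%, 0.424% and 0.584%, and Eef1a1 alone had 62400, 39797 and 56202 counts. The Eif1 and Eif3 genes were also lowest in library 2, while the Eif2, Eif4 and Eif5 genes were highest there. The libraries are technical replicates, so these differences are technical. For any level in bulk RNA, fewer cells of a type and less RNA per cell cannot be told apart.

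The groups stood at different levels. Median TPM was 448 for the 4 Eif5 genes, 135 for the 14 Eif3 genes, 82.5 for the 16 Eif4 genes, 34.4 for the 5 Eif1 genes, 32.7 for the 14 Eif2 genes and 31.9 for the 14 Eef genes, and Eif6 stood at 149 TPM. The Eef genes ran from 0.0533 to 3435 TPM. Only 4 members fell short of 1 TPM in some library. Eif4e1b, a cap-binding protein known from oocytes, had 0 counts in every library, and Eef1a2, the carrier isoform of muscle and neurons, had 3 counts in all. The methyltransferase gene Eef1akmt3 stood at 0.49, 0.04 and 0.35 TPM. The kinase gene Eef2k stood at 1.35, 0.55 and 2.37 TPM.

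**Figure D1:**
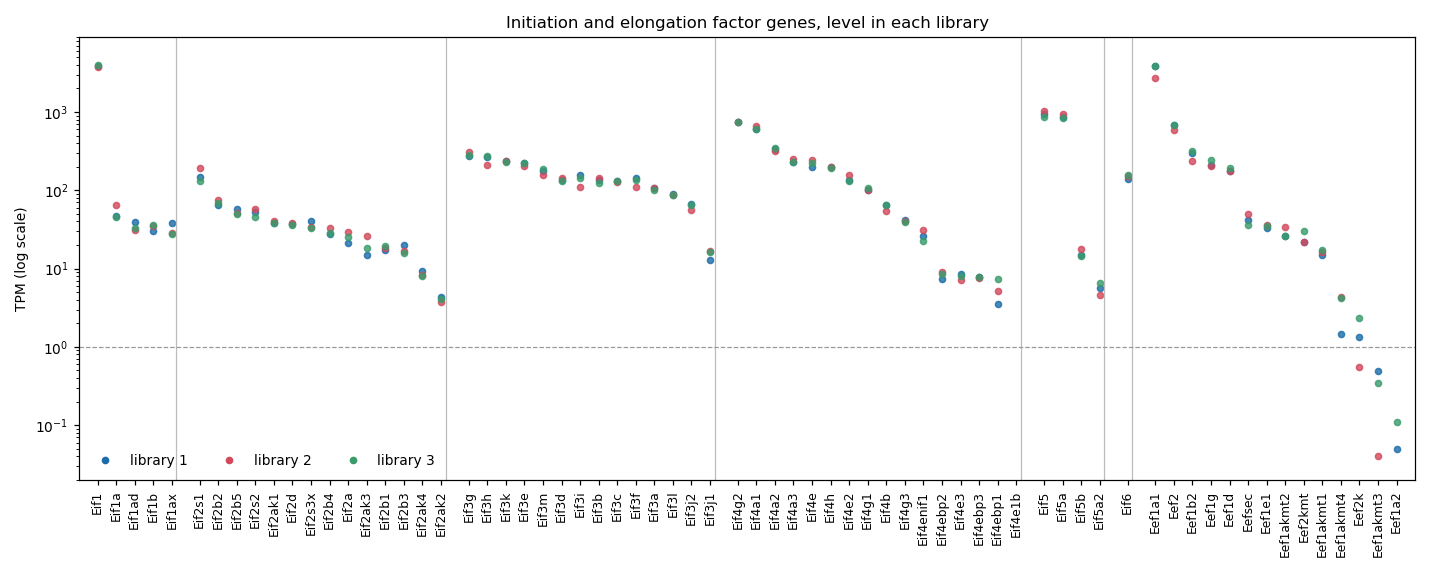
Level of each factor gene in TPM on a log scale, by factor group and in order of mean level, with 1 point per library and the dashed line at 1 TPM. Eif1 and Eef1a1 lie at 2680 TPM or more in every library, 11 of the 14 Eif3 genes lie above 100 TPM, and Eif4e1b (0 in all libraries) and the 0 of Eef1a2 in library 2 cannot be drawn.

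The start-codon factor gene Eif1 had the highest gene level of all members. Eif1 (ENSMUSG00000035530.13, chromosome 11, 100319885 to 100322096 on GRCm38/mm10) measured 3874.6, 3723.3 and 3993.9 TPM, a mean of 3864 ± 136 TPM that ranked 12 among protein-coding genes. Its level depended on which transcripts were counted. Transcripts that GENCODE classes as protein-coding held 1195, 1077 and 1177 TPM, or 1150 ± 63.5 TPM. The remaining 70.2% ± 0.98 of its TPM was given to the short processed transcripts Eif1-202 (383 bases, 17157 counts over the 3 libraries) and Eif1-203 (447 bases, 9347 counts), beside Eif1-201 (1322 bases, 35547 counts). A read in a short transcript weighs more in TPM, and by counts the same transcripts held 41.0% of the gene. With protein-coding transcripts only, Eef1a1 ranked 1 and Eif1 ranked 2 among the members.

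The other Eif1 genes were far lower and close to each other. Eif1a, which with eIF1 opens the small subunit for scanning, measured 46.7, 64.5 and 45.5 TPM, highest in library 2. Its X-linked counterpart Eif1ax measured 38.04, 28.2 and 27.6 TPM, highest in library 1. The proteins of Eif1a and Eif1ax were 98.6% identical over 144 residues, and their TPM ratio was 1.72 ± 0.535, from 1.23 in library 1 to 2.29 in library 2. Counting protein-coding transcripts only, that ratio was 3.98 ± 1.01, and 57.2% of the TPM of Eif1ax lay in Eif1ax-202, a retained-intron transcript of 416 bases with 184 counts. In the second gene table, whose whole-number counts were made separately on GENCODE M4, the ratio per length was 0.665 ± 0.16, so the order turned. Eif1ad stood at 39.0, 31.2 and 32.9 TPM, and Eif1b, 92.0% identical in protein to Eif1, at 29.8, 34.7 and 35.8 TPM. The ratio of Eif1 to Eif1b was 116 ± 11.96 over all transcripts and 34.6 ± 4.75 over protein-coding ones. The second gene table held 310, 291 and 316 counts of Eif1, and there the ratio per length was 3.64 ± 0.165.

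eIF2 carries the initiator tRNA and is built of an alpha, a beta and a gamma subunit. Eif2s1, the alpha subunit that stress kinases phosphorylate, measured 149, 190 and 131 TPM, with library 2 the highest. Eif2s2, the beta subunit, measured 53.0, 56.8 and 45.7 TPM. Eif2s3x, the X-linked gamma subunit, measured 40.2, 34.0 and 33.0 TPM. The order alpha, beta, gamma was the same in each library with no overlap, and the highest subunit was 4.38 times the lowest. The second gene table held 8, 2 and 4 counts of Eif2s3x.

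That gap narrowed when protein-coding transcripts alone were counted. Eif2s1 then stood at 56.8, 65.2 and 54.6 TPM, Eif2s2 at 51.8, 56.0 and 44.6 TPM, and Eif2s3x stood at 35.7 ± 3.91 TPM. The highest subunit was then 1.65 times the lowest, and Eif2s1 and Eif2s2 overlapped between libraries. The transcript left out was Eif2s1-203, a processed transcript of 433 bases with 982 counts against 5446 for the 3405-base Eif2s1-201, which held 58.8% ± 4.13 of the gene's TPM.

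eIF2B recharges eIF2 with GTP and is the step blocked when eIF2 alpha is phosphorylated. Its 5 subunit genes lay within 3.995-fold of each other. The beta subunit gene Eif2b2 was the highest at 64.2, 75.4 and 69.4 TPM, and the catalytic epsilon gene Eif2b5 followed at 57.4, 51.1 and 49.0 TPM. The delta gene Eif2b4 measured 27.5, 33.4 and 28.2 TPM. The alpha gene Eif2b1 measured 17.3, 18.6 and 19.3 TPM, and the gamma gene Eif2b3 19.9, 16.9 and 15.6 TPM. The last pair overlapped and changed order between libraries. In protein-coding transcripts Eif2b5 (52.5 ± 4.35 TPM) stood above Eif2b2 (38.7 ± 7.17 TPM), since 44.8% ± 6.36 of the TPM of Eif2b2 lay in retained-intron transcripts.

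All 4 kinases that phosphorylate eIF2 alpha were detected, at lower levels than their substrate. The heme-regulated kinase gene Eif2ak1 (HRI) was the highest at 38.3, 40.0 and 38.5 TPM. Eif2ak3, the endoplasmic reticulum stress kinase PERK, measured 14.7, 26.4 and 18.04 TPM, and library 2 stood apart as the highest. The amino acid sensor Eif2ak4 (GCN2) measured 9.40, 8.30 and 8.11 TPM and the double-stranded RNA sensor Eif2ak2 (PKR) 4.37, 3.74 and 4.14 TPM. The order of the 4 genes was the same in each library, with no overlap between neighbours. Eif2a, a separate initiator tRNA-binding protein that is not a subunit of eIF2, stood at 21.1, 29.4 and 25.3 TPM, with 73.7% ± 5.44 of that in transcripts not classed as protein-coding. Its protein-coding transcripts were poorly resolved: Eif2a-201 was given 0.75, 0 and 8.20 TPM and Eif2a-205 3.87, 7.27 and 0 TPM in libraries 1, 2 and 3. Eif2d, a ribosome recycling factor, stood at 37.5, 37.6 and 36.2 TPM.

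eIF3 is the large scaffold that holds the small subunit and the mRNA together. All 14 of its genes exceeded 10 TPM in every library and 11 exceeded 100 TPM. The RNA-binding subunit Eif3g was the highest at 272, 305 and 284 TPM. Leaving out the loosely bound J subunit, the other 12 genes lay within 3.26-fold of each other.

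The remaining eIF3 subunits followed in a graded order. The PCI and MPN ring subunit genes Eif3h, Eif3k, Eif3e and Eif3m had means of 251 ± 34.0, 236 ± 3.95, 215 ± 11.9 and 173 ± 14.01 TPM. Eif3d, a cap-binding subunit, had 137 ± 4.91 TPM, the propeller subunits Eif3i and Eif3b had 136 ± 23.0 and 134 ± 10.2 TPM, and the core subunit Eif3c 130 ± 1.88 TPM. Eif3f had 129 ± 17.5 TPM, the core subunit Eif3a 104 ± 3.22 TPM and Eif3l 88.0 ± 1.10 TPM. Eif3h and Eif3k overlapped between libraries, as did each neighbouring pair from Eif3d to Eif3f, so the order among them is not fixed by these data. Eif3i was the clearest case of a library apart in the middle of this order, at 154, 110 and 144 TPM.

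The J subunit is encoded by a pair of genes. Eif3j2 measured 65.8, 55.9 and 65.2 TPM and Eif3j1 12.8, 16.6 and 16.2 TPM, with no overlap. The encoded proteins were 99.2% identical, so reads may be split between them, and the assignment uncertainty, the deposited posterior SD of a count, reached 5.57% of the count for Eif3j1 and 1.12% for Eif3j2. The second gene table gave Eif3j2 0, 0 and 2 counts. In protein-coding transcripts Eif3j1 stood at 4.90 ± 0.436 TPM, since 67.2% ± 6.13 of its TPM lay in the 594-base Eif3j1-202, and the spread from Eif3g to Eif3j1 went from 18.9-fold to 54.5-fold.

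**Figure D2:**
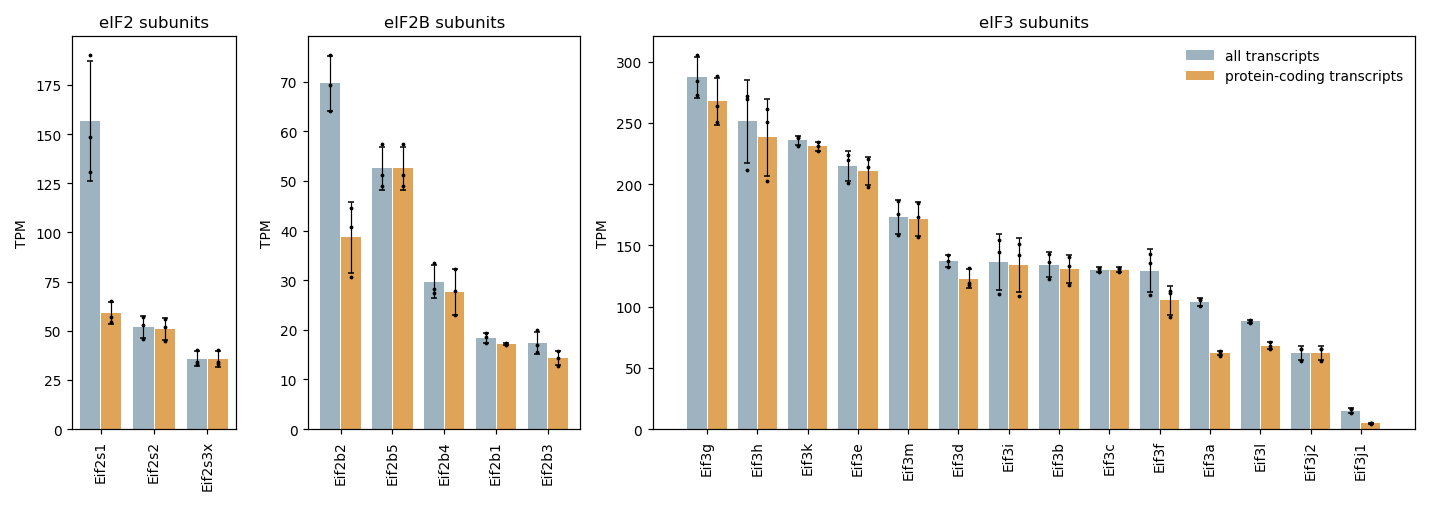
TPM of the subunit genes of eIF2, eIF2B and eIF3, as bars of the mean with SD of 3 libraries and a dot per library, for all transcripts and for protein-coding transcripts only. Eif2s1 stands at 157 TPM over all transcripts and at 58.9 TPM over protein-coding ones, Eif3j1 at 15.2 and 4.90 TPM, and the bars of Eif2s3x and of Eif3c are level.

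The eIF4F complex joins a cap binder, a scaffold and a helicase. The cap-binding gene Eif4e measured 200, 244 and 224 TPM and its relative Eif4e2, which binds the cap without eIF4G and is known as a repressor, 137, 156 and 132 TPM. Eif4e3 measured 8.43, 7.19 and 7.92 TPM. The protein of Eif4e was 27.7% identical to that of Eif4e2 and 27.6% to that of Eif4e3. The ratio of Eif4e to Eif4e2 was 1.57 ± 0.119, above 1 in each library of the first gene table. In the second gene table, per length, it was 0.372 ± 0.0112, so the order of this pair is uncertain.

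The 4E-BPs, which bind eIF4E and keep it from eIF4G until mTOR phosphorylates them, were low. Eif4ebp1 measured 3.57, 5.21 and 7.28 TPM on 133 counts. Eif4ebp2 measured 7.35, 9.04 and 8.49 TPM on 764 counts, and Eif4ebp3 7.90, 7.59 and 7.85 TPM on 149 counts. Eif4e stood 10.4 ± 0.859 times above the sum of the 3 inhibitor genes and 26.9 ± 0.40 times above Eif4ebp2. Short transcripts carried much of the Eif4e level, with 44.5% of its TPM in Eif4e-205 (729 bases) and 30.4% in Eif4e-206 (526 bases). The 4991-base Eif4e-201 had 3067 of the 6126 counts but 22.6 TPM. In Eif4ebp2, the 1422-base Eif4ebp2-202 held 54.6% ± 13.2 of the TPM. These ratios therefore depend on how reads were divided among transcripts. Of the TPM of Eif4ebp1, 86.9% ± 3.64 was given to a 798-base processed transcript, Eif4ebp1-202, and its protein-coding transcript stood at 0.733 ± 0.440 TPM. The gene Eif4enif1, which encodes the eIF4E transporter, stood at 25.8, 31.4 and 22.6 TPM.

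Among the scaffolds, Eif4g2 stood above the canonical genes. Eif4g2, also known as DAP5, lacks the eIF4E-binding region and measured 750, 741 and 737 TPM, with an SD of 6.53 TPM that was the smallest relative spread among the members above 500 TPM. Eif4g1 measured 102, 101 and 107 TPM and Eif4g3 41.1, 40.5 and 39.1 TPM, with 46.3% identity between the encoded proteins. Eif4g2 was 7.17 ± 0.262 times Eif4g1, or 7.18 ± 0.212 times in protein-coding transcripts. In the second gene table, per length, Eif4g1 was 0.409 ± 0.00972 of Eif4g2, against 0.140 ± 0.00521 in the first.

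The helicase genes differed in the kind of transcript. Eif4a1, the main helicase of eIF4F, measured 598, 670 and 608 TPM, and Eif4a2 335, 318 and 350 TPM, with 89.9% protein identity. Eif4a3, the related helicase of the exon junction complex, measured 231, 251 and 230 TPM, with 66.0% identity to Eif4a1. Eif4a1 was 1.88 ± 0.201 times Eif4a2 over all transcripts but 4.73 ± 0.274 times in protein-coding transcripts, where Eif4a2 stood at 101 ± 2.77 TPM. Of the TPM of Eif4a2, 38.9% lay in retained-intron transcripts and 30.7% in nonsense-mediated decay transcripts, spread over 25 annotated transcripts. The helicase partners Eif4h and Eif4b measured 196, 200 and 194 TPM and 65.7, 54.6 and 63.9 TPM.

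The level of Eif4a1 is uncertain. The processed pseudogene Eif4a-ps4, not a member, stood at 131 ± 3.36 TPM. The posterior SD reached 9.48% of the count for that pseudogene and 1.45% for Eif4a1. The second gene table held 229, 238 and 218 counts of Eif4a1 against 1176, 1095 and 1141 of Eif4a2. Its ratio per length was 0.211 ± 0.0157 to Eif4a2 and 0.176 ± 0.00663 to Eif4a3, so the order of these helicase genes is uncertain.

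**Figure D3:**
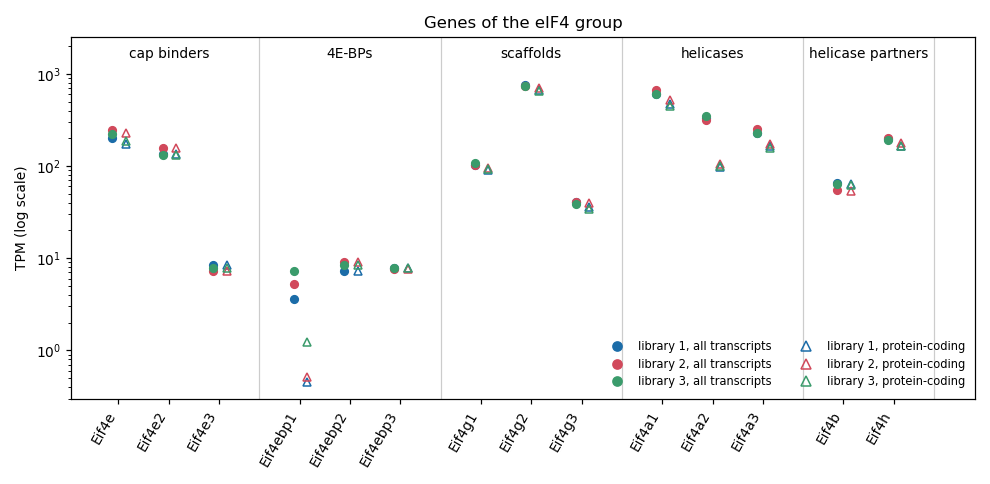
TPM on a log scale for the cap binders, the 4E-BPs, the scaffolds and the helicases with their partners, with filled circles for all transcripts and open triangles for protein-coding transcripts, coloured by library. The 4E-BP genes lie below 10 TPM, Eif4g2 lies above 700 TPM in all transcripts, and the triangles of Eif4a2 and Eif4ebp1 lie well under their circles.

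The Eif5 genes were among the highest, apart from the joining factor. Eif5, which makes eIF2 hydrolyse GTP at the start codon, measured 935, 1027 and 865 TPM, highest in library 2. Eif5a, a hypusine-bearing factor that keeps ribosomes from stalling, measured 851, 948 and 843 TPM, and all 13 of its annotated transcripts are protein-coding. Its paralog Eif5a2, 82.5% identical in protein, measured 5.65, 4.54 and 6.63 TPM, and the ratio of the pair was 162 ± 42.0. Eif5b, the GTPase that joins the subunits, measured 14.98, 17.8 and 14.6 TPM.

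Of the Eif5b level, 80.4% ± 8.38 was in retained-intron transcripts, led by the 5788-base Eif5b-202 with 1936 counts. The 7797-base protein-coding Eif5b-201 had 652 counts, a posterior SD of up to 21.8% of the count, and stood at 1.55, 3.89 and 3.90 TPM. Eif6, which keeps free large subunits apart from small ones, measured 139, 151 and 158 TPM. Protein-coding transcripts held 78.3 ± 7.58 TPM of that.

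Elongation factors held the second-highest gene. Eef1a1 (ENSMUSG00000037742.14, chromosome 9, 78478449 to 78489151 on GRCm38/mm10), which delivers aminoacyl-tRNA to the ribosome, measured 3815, 2680 and 3809 TPM, a mean of 3435 ± 654 TPM. It took 0.349% ± 0.0713 of all gene counts, and library 2 lay well below the other libraries. Its paralog Eef1a2 encodes a protein 92.2% identical to it and had 1, 0 and 2 counts.

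The exchange-factor subunits that recharge eEF1A were lower than their client. Eef1b2 measured 303, 234 and 317 TPM, the structural subunit Eef1g 212, 202 and 240 TPM, and Eef1d 175, 178 and 191 TPM. Eef1b2 and Eef1g overlapped between libraries, while Eef1a1 stood 18.9 times above Eef1d. Nonsense-mediated decay transcripts held 44.5% of the TPM of Eef1b2, and its protein-coding transcripts stood at 144 ± 22.4 TPM.

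Eef2, the translocase, measured 680, 580 and 682 TPM, with library 2 again the lowest. Eef1a1 was 5.27 ± 0.568 times Eef2. The second gene table held 713, 691 and 701 counts of Eef1a1 and 4311, 4039 and 4204 of Eef2, a ratio per length of 0.303 ± 0.00438, so there the order turned. The cause was not tested. Eef2k, the kinase that blocks eEF2, stood at 1.42 ± 0.912 TPM on 61.3 counts. Eefsec, the selenocysteine elongation factor, stood at 41.3, 49.3 and 36.5 TPM. Eef1e1, a component of the multi-tRNA synthetase complex, stood at 33.0, 36.1 and 35.3 TPM. The lysine methyltransferase genes Eef1akmt2, Eef2kmt, Eef1akmt1 and Eef1akmt4 had means of 28.9, 24.6, 16.2 and 3.35 TPM.

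Transcript classes were compared over the 56 members with a mean of 10 TPM or more. Transcripts not classed as protein-coding held a median of 10.4% of a member's TPM, against 16.4% in the 7488 other protein-coding genes at that level. Of these members, 17 (30.4%) held 25% or more in such transcripts, against 38.6% of the other genes. The shares were uneven among the members, from 0% to 80.4%.

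For 6 members, a transcript not classed as protein-coding was the leading one: Eif5b, Eif2a, Eif1, Eif3j1, Eif2s1 and Eif1ax. Retained-intron transcripts made up nearly all of the noncoding TPM in Eef1e1 (47.0% ± 7.40 of the gene), Eif3a (40.3% ± 3.02) and Eif4enif1 (39.5% ± 2.85). Eif5 held 38.4% ± 5.39, Eef2kmt 41.7% ± 6.86, Eif4a3 30.3% ± 1.87 and Eef1akmt2 25.1% ± 2.59. Eif3c and Eif2s3x had 0%, Eif3m 0.852% ± 0.252 and Eef2 1.38% ± 0.277, while Eif5a and Eif4e2 have no annotated transcript outside the protein-coding class. By counts the shares were lower where the transcript was short: 8.84% in Eif1ax, 17.4% in Eif3j1, 17.96% in Eif2s1 and 9.73% in Eif4enif1. They stayed high in Eif5b (74.9%), Eif2a (79.2%) and Eif4a2 (51.9%).

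**Figure D4:**
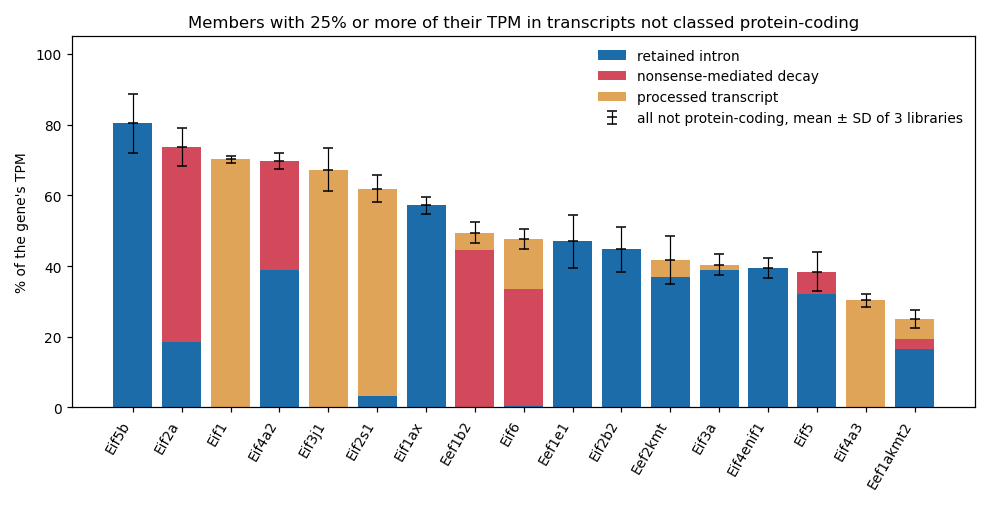
Share of each gene's TPM in retained-intron, nonsense-mediated decay and processed transcripts, stacked, for the 17 members at 25% or more, with the mean ± SD of 3 libraries of the whole share. Eif5b is led by retained introns, Eif2a and Eef1b2 by nonsense-mediated decay transcripts, and Eif1, Eif3j1 and Eif2s1 by processed transcripts.

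The 3 libraries come from the same mouse, so a difference between them compares libraries and not conditions. Each gene with 30 or more counts was compared between the libraries by chi-square, with TMM library sizes and Benjamini-Hochberg adjustment over 13949 genes. Of 65 members tested, 44 (67.7%) differed at 0.05, against a background of 54.7%. After division of the statistic by its median inflation of 6.04, 10 members (15.4%) passed, against 3.84%: Eef1a1, Eef1b2, Eef1g, Eef2, Eif1, Eif2ak3, Eif3f, Eif3h, Eif3i and Eif5. Calls depend on depth. In the first chi-square test, 9 of the 12 members with 10000 or more counts passed, against 83.75% of other protein-coding genes at that depth. At 3000 to 10000 counts it was 19 of 26 against 69.0%, and at 1000 to 3000 counts 9 of 12 against 56.4%. At 300 to 1000 counts it was 4 of 11 against 47.3%, and below 300 counts 3 of 4 against 46.8%. In the inflation-corrected test, 4 of the 12 members with 10000 or more counts passed, against 30.4%. Of the 26 with 3000 to 10000 counts 5 passed it, against 5.99%. Without library 2, 20 members passed the first chi-square test and 0 the inflation-corrected one, against 25.5% and 0.256% of 12904 genes. At an unadjusted p under 0.05 the inflation-corrected chi-square test had 6 of 65 members, against 5.99% of all genes.

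Library 2 was the lowest or the highest for most members past the test, as it was for most genes past it. Of all 7629 genes past the test, 2980 were lowest and 3001 highest in library 2. Of the 65 members, 19 (29.2%) passed the test and were lowest in library 2, against a background of 21.4%, and 19 (29.2%) passed and were highest there, against 21.5%. The lowest set included Eef1a1, Eef1b2, Eef1d, Eef1g, Eef2, Eif3e, Eif3f, Eif3h, Eif3i, Eif3m and Eif4b. The highest set included Eif2ak3, Eif2s1, Eif1a, Eif4e, Eif5, Eif5a, Eif4a1 and Eefsec.

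The largest test statistic among the members was that of Eef1a1, with a chi-square of 4230.9 and a level in library 2 that was 0.54 lower on the log2 scale than the mean of libraries 1 and 3. Eif3i was lower by the log2 difference of -0.49 (adjusted p = 2.3e-19) and Eef1b2 by -0.44 (adjusted p = 6.0e-20). Eif3h had -0.39 (adjusted p = 6.6e-26) and Eif3f -0.35 (adjusted p = 4.1e-18). In the other direction, Eif2ak3 had 0.60 (adjusted p = 1.3e-21) and Eif5 0.16 (adjusted p = 1.2e-30). These are chi-square p-values with Benjamini-Hochberg adjustment, which cover counting error only. With inflation correction they were 0.0152 for Eif3i, 0.0125 for Eef1b2, 0.0016 for Eif3h, 0.0233 for Eif3f, 0.00728 for Eif2ak3 and 0.000314 for Eif5. The widest TPM ratios between libraries among members past the test were those of Eef2k (4.31), Eef1akmt4 (2.96), Eif4ebp1 (2.04), Eif2ak3 (1.79) and Eif5a2 (1.46), and all but Eif2ak3 rested on 770 counts or fewer over the 3 libraries.

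The members low in library 2 included genes whose mRNAs are known, mainly from human cells, to start with a terminal oligopyrimidine tract (TOP), a C followed by a run of C and T through which mTOR and LARP1 control translation. A list of 9 such members, drawn up after the values were seen and therefore given no test, was Eef1a1, Eef1b2, Eef1d, Eef1g, Eef2, Eif3e, Eif3f, Eif3h and Eif4b. All 9 passed the library test and were lowest in library 2 in CPM, with a median log2 difference of -0.28. Of these, Eef1d, Eif3e and Eif4b did not pass the inflation-corrected test. Because the list followed the values, the count of 9 is a description only. The other 56 members tested had a median log2 difference of 0.03 and all genes tested -0.01. On the TPM scale 8 of the 9 were lowest in library 2, the exception being Eef1d at 175, 178 and 191 TPM. Cytosolic ribosomal protein genes, the classic TOP genes, showed the same order, with a median of -0.45. Of 79 tested, 74 were called and lowest in library 2, against 21.4% of all genes tested. That list too was chosen after the values were seen. The translation gene Tpt1 measured 1351, 1124 and 1399 TPM and Pabpc1 224, 191 and 219 TPM.

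The size of this difference depended on the table used. By the second set of gene counts, 8 of the 9 were lowest in library 2, and the median log2 difference was -0.11. The exception there was Eef1a1, with a log2 difference of -0.03 on its 713, 691 and 701 counts. Eif4b kept -0.32 and Eif3i -0.37, and Eif2ak3 kept 0.56. Over all protein-coding genes tested, the median log2 difference was 0.01, 0.06 and -0.03 in short, middle and long genes. At low and high GC content it was 0.03 and 0.01. Of the TOP members, the 6 short and the 2 of middle length had a median of -0.31 each, and the long gene Eif4b had -0.26. Library 2 also held the largest share of counts in rows outside the GENCODE M21 genes. The part of those rows, of length or of base composition in these differences was not tested.

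**Figure D5:**
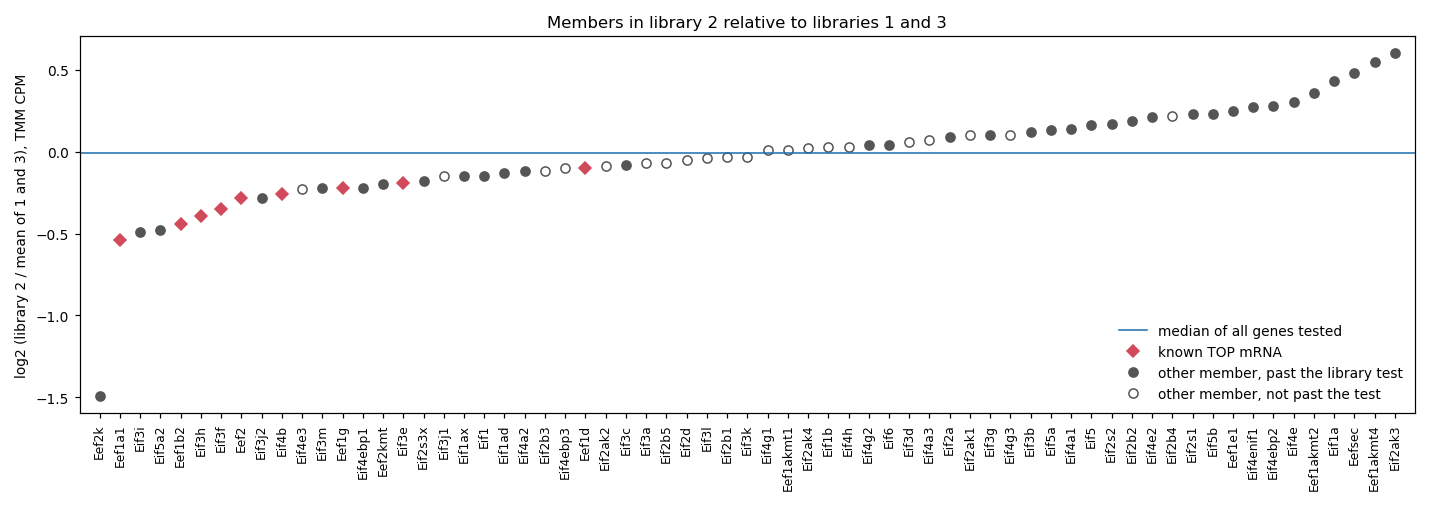
Log2 ratio of library 2 to the mean of libraries 1 and 3, in CPM with TMM scaling, for the 65 members tested, with filled symbols for members past the library test, diamonds for the 9 known TOP members and a line at the median of all genes tested. All 9 diamonds lie below the line, from -0.54 for Eef1a1 to -0.10 for Eef1d, among other members that are also low, such as Eif3i, and Eef2k lies lowest at -1.49 on 61.3 counts.

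RefSeq start windows are shown for 8 members. They are known TOP members with and without a match, other members with a match, and members high in library 2. The windows show where a TOP would stand only if the annotated start is the one used, which was not measured here. Each runs from 10 bases before the annotated start to 20 bases from it, 5′ to 3′ on the gene's strand, on GRCm38.p6. Capitals mark the first TOP-like run of a window, that is a C within 5 bases of the annotated start followed on the gene's strand by 5 or more C or T. In Eif3l a later run, ctctctccc, also meets this rule and is left in small letters.
Eef1a1 (chr9:78481705-78481734, minus strand): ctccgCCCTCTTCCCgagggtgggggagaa
Eif3f (chr7:108934405-108934434, plus strand): tctaggCTCTCTCTCTTTCTCggcaagatg
Eef1b2 (chr1:63176821-63176850, plus strand): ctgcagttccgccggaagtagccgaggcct
Eef2 (chr10:81176621-81176650, plus strand): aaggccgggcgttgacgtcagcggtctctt
Eif2s3x (chrX:94212632-94212661, minus strand): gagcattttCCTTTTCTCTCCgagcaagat
Eif3l (chr15:79075213-79075242, plus strand): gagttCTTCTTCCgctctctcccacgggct
Eif2ak3 (chr6:70844505-70844534, plus strand): agcagacgcacggaaccctcgctcaatggg
Eif5 (chr12:111538091-111538120, plus strand): cgacgtgcatgcgagccaatgacaagagaa

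TOP-like runs were found in 8 of the 52 members with a RefSeq window (15.4%), against 11.95% of all 27025 genes of that table and 41.3% of 63 cytosolic ribosomal protein genes. The members were Eef1a1, Eif2ak4, Eif2b2, Eif2b5, Eif2s3x, Eif3f, Eif3l and Eif4g1. Of the 9 known TOP members 5 had a window and 2 of these a run, Eef1a1 and Eif3f. Starts used in these cells were not measured. Neither a run nor its absence therefore shows whether an mRNA begins with a TOP. Among the other members with a run, Eif2s3x passed the library test as lowest in library 2 and Eif2b2 as highest there, while Eif2ak4, Eif2b5, Eif3l and Eif4g1 did not pass it. In the 300-base windows from 250 bases before to 50 after the start, the E-box CACGTG, searched on both strands, stood in 13 of 52 members (25%), against 12.3% of 7927 other protein-coding genes at 1 TPM or more and 8.09% of the whole table. GGGCGG, also on both strands, stood in 75%, against 70.5% and 38.2%. A match to either motif is a description only.

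Genes that work with the factors were described from lists of partners, whose counts past the library test stand against the background of 54.7% past it, 21.4% as lowest and 21.5% as highest in library 2. Poly(A)-binding and cap partners had a median of 88.4 TPM, and all 15 reached 1 TPM in every library, 7 of them 100 TPM. Of the 15, 12 passed the library test, 6 as lowest and 4 as highest in library 2. Tpt1 led at 1291 ± 146 TPM, followed by the poly(A)-binding protein inhibitor gene Paip2 at 337 ± 38.2 TPM and the eIF5-mimic gene Bzw1 at 332 ± 23.4 TPM.

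Scanning, recycling and termination genes had a median of 56.3 TPM, with all 11 at 1 TPM or more and 6 past the library test, 0 as lowest and 4 as highest in library 2. The ribosome rescue GTPase gene Hbs1l stood at 125 ± 20.1 TPM, and the release factor gene Etf1 at 82.2 ± 5.81 TPM. Genes of the upstream kinases, their partners and their regulators had a median of 32.7 TPM, with 12 of 13 at 1 TPM or more. Of the 13, 6 passed the test, 5 as lowest and 1 as highest in library 2. Mtor itself stood at 12.7 ± 2.09 TPM, its activator Rheb at 216 ± 4.63 TPM, and the eIF4E kinase genes Mknk2 and Mknk1 at 151 ± 11.7 and 36.2 ± 2.86 TPM.

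Of the 11 genes of the integrated stress response, the programme run by eIF2 alpha phosphorylation, 9 reached 1 TPM in every library, with a median of 36.1 TPM. Of 9 tested, 5 passed the library test, 3 as lowest and 1 as highest in library 2. Ppp1r15a, which brings a phosphatase to eIF2 alpha, measured 616, 744 and 598 TPM, highest in library 2, and the transcription factor gene Atf4 measured 223, 181 and 232 TPM, lowest there. The targets Asns and Trib3 stood at 23.9 ± 0.375 and 4.89 ± 0.484 TPM, and Chac1 had 1 count in all. Of the same list, Atf3 stood at 36.1 ± 2.93 TPM, Ddit3 at 35.6 ± 4.89 TPM and Atf5 at 0.367 ± 0.201 TPM.

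The 8 genes that modify elongation factors had a median of 26.0 TPM, and 6 passed the test, 5 as lowest and 1 as highest in library 2. Dhps and Dohh, which make hypusine on eIF5A, stood at 74.6 ± 9.77 and 37.9 ± 3.67 TPM, beside 881 ± 58.3 TPM for Eif5a. Mitochondrial translation factors had a median of 20.02 TPM, with 8 of 9 at 1 TPM or more and 6 past the test, 0 as lowest and 3 as highest in library 2. Tufm, the mitochondrial counterpart of eEF1A, stood at 75.6 ± 6.21 TPM.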

How the data were processed

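Polyadenylated RNA was measured in 3 technical libraries of 1 mouse. Per the deposited descriptions and file headers, the gene and transcript tables on mm10 with GENCODE M21 hold expected counts, in which ambiguous reads are divided among features, beside posterior mean TPM, TPM and FPKM. The posterior SD of each count, a deposited score in reads, gave the uncertainty of read assignment. Another deposited table holds whole-number counts on GENCODE M4 in 22457 rows, 22195 of which matched, with totals of 5110680, 4812984 and 4579836. No aligner, quantifier or strand setting is named by the labels or headers. Antisense pairs can therefore not be separated.

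The rule leaves out 1 gene with the prefix, which is not analysed here. The members, lists, tests and settings were chosen with earlier results of these data known. The TOP and ribosomal lists, the comparison of library 2 with the others, the protein-coding transcript levels and the principal transcripts used for protein identity were chosen after the values were seen. Named genes are the 3 highest of each group, all subunits and inhibitors of the complexes, members under 1 TPM, the 5 widest library ratios and members with a noncoding share of 25% or more. Partners from the lists beyond that were chosen after their values were seen.

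Expected counts were rounded, and each gene was tested over libraries by chi-square, with edgeR 4.0.16 TMM sizes and 30 or more counts; no edgeR contrast exists with 1 group. The test was also run on simulated counts with counting error only, so that run does not cover the extra spread between these libraries. Proteins were translated from GENCODE M21 coding sequences and aligned globally with BLOSUM62 (biopython 1.88); identity is over aligned columns. Promoter windows are RefSeq's (GRCm38.p6), and 52 of 68 members matched. Other settings used DESeq2 1.42.0 size factors. Software was Python 3.11.15, numpy 2.4.6, scipy 1.17.1, pandas 2.3.3, matplotlib 3.10.9 and R 4.3.3.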

Additional observations from a re-analysis of the deposited data

Results flagged for a closer look

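Rows with the same symbol prefix that are pseudogenes lie outside the 68 members, and 4 of them held more than 3 counts in every library. Eif4a-ps4 was given 131.3 TPM, Eif1-ps1 5.30 TPM, Eif1-ps2 3.38 TPM and Eif5al3-ps 1.47 TPM. Their assignment uncertainty reached 9.48%, 33.2%, 28.5% and 33.5% of the count. No group of 3 libraries was screened for outliers.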

How the results depend on the processing

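Across 26 results and 171 other settings, 130 values stayed within the spread between libraries or within 1.5 times a count, and 41 moved. No paired analysis was possible because there is 1 group. The median of 52.4 TPM was 45.2 with posterior mean TPM, 31.8 in FPKM and 61.4 over members of 1 TPM or more. The members' share of 1.499% was 1.02% in the second gene table and 1.65% of TPM. The 44 members past the library test became 14 in the second table and 20 to 38 when a library was left out, the lowest without library 2. The 10 past the inflation-corrected test became 1 in the second table, 20 with no filter beyond 1 count and 0 to 8 when a library was left out, 0 without library 2 and 6 without library 3. The 19 called and lowest in library 2 became 8 in the second table and 8 after inflation correction. In the second table per length the ratios were 0.211 for Eif4a1 to Eif4a2, 0.409 for Eif4g1 to Eif4g2, 0.303 for Eef1a1 to Eef2, 0.372 for Eif4e to Eif4e2, 0.665 for Eif1a to Eif1ax, 3.64 for Eif1 to Eif1b and 21.1 for Eif4e to Eif4ebp2. There the spread was 346-fold in eIF2, on 8, 2 and 4 counts of Eif2s3x, and 10.5-fold in eEF1. The ratio of Eif4g1 to Eif4g2 was 0.151 with posterior mean TPM. In protein-coding transcripts alone, a setting added after the data were seen, Eif4a1 to Eif4a2 was 4.73, Eif4e to Eif4ebp2 23.5, and the spreads were 1.65 in eIF2 and 54.5 in eIF3. Without Eif3j1 and Eif3j2, also added, eIF3 spread 3.26-fold. eIF2B spread 3.77 to 4.46-fold when a library was left out. The median noncoding share was 14.8% with posterior mean TPM. Why the second table differs was not tested. Depth limits statements on members under 100 counts.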
